A study of Mus musculus with 95 samples.

Results

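The comparison described here sets mouse embryonic stem cells that lack both Pcgf3 and Pcgf5 against the unedited E14 cells they were made from. Its samples are 4 of the 95 in the series: the 2 polyA RNA-seq libraries labelled Pcgf3/5-/- and the 2 labelled wild-type. They were chosen by their columns in the gene count table, and 13578 of the 23377 genes in that table had enough counts to be tested. The series as a whole has 14 RNA-seq libraries, from wild-type cells and 6 lines without 1 or more PCGF proteins, and ChIP-seq peak lists from the same kinds of line. E14 is an established male mouse embryonic stem cell line. Both groups were grown without feeder cells on gelatin, in serum medium with leukemia inhibitory factor plus inhibitors of GSK3β and of MEK1/2, which hold the cells in an undifferentiated state. The knockout cells came from Cas9 editing, in which a single-knockout clone was edited again and cloned once more. The column names carry 1 clone name, so the 2 Pcgf3/5-/- libraries stand for 1 clone, and what the double loss does cannot be told apart from what is peculiar to that clone.

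PCGF proteins are the subunits that define the forms of Polycomb repressive complex 1 (PRC1), the chromatin complex whose RING1A or RING1B subunit attaches ubiquitin to histone H2A. PCGF3 and PCGF5 build closely related variant complexes with RYBP or YAF2, casein kinase 2, DCAF7 and AUTS2 or its relatives FBRS and FBRSL1. These complexes are known for depositing H2A ubiquitin broadly across the genome, whereas PCGF2 and PCGF4 belong to the CBX-containing complexes that sit at strongly silenced developmental genes. USF1 is a basic helix-loop-helix transcription factor that binds the E-box CACGTG.

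The 4 libraries held between 5295194 and 7099900 counts in genes. The wild-type libraries differed from each other by less than the sampling noise: over 13536 genes the chi-square statistic was 0.942 per degree of freedom, against 5.73 over 13555 genes for the Pcgf3/5-/- libraries. No label says that they were grown apart, so p-values measure only the spread between these libraries. For that reason each main count below is followed by the count from a second fit, in which the wild-type libraries were summed and counted as 1 sample. All levels are library-scaled counts (CPM, with TMM factors), and all differences are log2 fold changes of Pcgf3/5-/- over wild-type. They come from the quasi-likelihood test of edgeR, and a gene is called raised or lowered where its Benjamini-Hochberg adjusted p was under 0.05. The identity of the cells was checked on 18 genes of naive pluripotency, all of them detected, whose summed level was 3507 and 3521 CPM in wild-type and 3410 and 3848 CPM in Pcgf3/5-/-. The 10 fibroblast and feeder markers summed to 356.006 and 358.098 CPM in wild-type and 361 and 466 CPM in Pcgf3/5-/-, of which Spp1, which is not confined to fibroblasts, made up 312 and 315 CPM and 317 and 430 CPM. Pdgfrb had 32.7 and 32.7 CPM against 22.6 and 21.0 CPM, the other markers were below 10 CPM, and Fap had no count in the 4 libraries. The part of such cells in the results was not tested.

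The 2 targeted genes were examined first. Pcgf5, on chromosome 19 (chr19:36453557-36530682, mm9), had 13.2 and 10.999 CPM in wild-type and 5.72 and 4.67 CPM in Pcgf3/5-/-. It fell by 1.2 on the log2 scale (SE 0.25, edgeR adjusted p = 0.0046). Pcgf3, on chromosome 5 (chr5:108890251-108935995, mm9), had 16.7 and 15.7 CPM in wild-type and 11.8 and 13.0 CPM in Pcgf3/5-/-. Its log2 fold change was -0.39 (SE 0.20) and missed the threshold (edgeR adjusted p = 0.176). Both knockout values lay below both wild-type values, but the groups likewise did not overlap in 64.2% of all genes tested. No source used here gives the edited positions, and a small edit can leave a transcript in place. With all 14 libraries scaled together, Pcgf5 had 5.297 and 4.597 CPM in Pcgf3/5-/- and 13.004 and 10.857 CPM in wild-type. It was also below wild-type in Pcgf1-/- (5.82 and 4.12 CPM) and Pcgf2/4-/- (3.75 and 5.95 CPM), whose labels do not name it. In Pcgf3/5/6-/-, whose label does, it had 16.01 and 13.25 CPM. Pcgf1/2/4-/- had 12.25 and 13.16 CPM, and Pcgf6-/- had 39.66 and 43.73 CPM. The counts are thus a weak check of the label for either gene.

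None of the 13 listed partners of PCGF3 and PCGF5 passed the edgeR test in either fit, where 27.5% of all genes tested did in the first and 22% in the second. At an unadjusted p under 0.05 there were 2, and DESeq2 called none. Without Pcgf3/5-/- replicate 1 edgeR called 4 of them, and without replicate 2 it called 2. Rnf2, the gene of RING1B, had 275 and 278 CPM in wild-type and 274 and 308 CPM in Pcgf3/5-/-. Rybp had 117 and 110 CPM against 107 and 107 CPM. Usf1 had 152 and 152 CPM against 139 and 146 CPM, a log2 fold change of -0.09 (SE 0.08). The partner with the lowest adjusted p was Fbrs, at 17.3 and 20.7 CPM against 14.4 and 10.3 CPM (log2 fold change -0.60, SE 0.22, edgeR adjusted p = 0.059). The 13 partners had a median log2 fold change of -0.09, beside 0.02 over all genes tested.

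Across the genome, 1940 genes (14.3% of those tested) were raised and 1791 (13.2%) were lowered, together 27.5%. With the wild-type libraries counted as 1 sample, 1814 of 14039 genes tested (12.9%) were raised and 1273 (9.07%) were lowered. Of the genes called in the first fit, 1623 of the raised and 1192 of the lowered were called in the same direction in the second. Without Pcgf3/5-/- replicate 1 the counts were 3524 and 3525, without replicate 2 they were 3541 and 3045, and without wild-type replicate 1 or 2 the lowered count was 1017 or 1099. Large changes were more often increases: 976 genes rose and 576 fell by more than 1 on the log2 scale. The median change was 1.01 among raised genes and -0.68 among lowered genes. In the authors' deposited table, made from the same libraries, 1608 genes were raised and 1475 lowered at an adjusted p under 0.05. Of these, 1469 and 1344 had the same call here, and no gene had the opposite call.

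The 12 genes with the largest increases, among well-expressed genes, code for proteins of varied function. They were picked by size among genes with a mean of at least 4 log2 CPM. Serpina3m, a serine protease inhibitor on chromosome 12 (chr12:105625374-105632467), had 6.54 and 6.00 CPM in wild-type and 74.9 and 69.0 CPM in Pcgf3/5-/-. Its log2 fold change was 3.52 (SE 0.16, edgeR adjusted p = 1.4e-07). Nxf3, of the nuclear RNA export factor family on the X chromosome, had 5.52 and 6.00 CPM against 53.4 and 47.8 CPM (log2 fold change 3.13, SE 0.18). Pkd2l1, a cation channel of the polycystin family, had 8.72 and 6.43 CPM against 67.6 and 63.2 CPM (3.11, SE 0.17). The selection also required both knockout libraries to lie beyond both wild-type libraries, so the lack of overlap in these genes was set by it. Of all genes tested, 64.2% had no overlap.

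Several of the other genes in that group are usually studied in blood cells. Nckap1l, the hematopoietic member of the WAVE regulatory complex, had 14.5 and 14.9 CPM in wild-type and 91.3 and 75.8 CPM in Pcgf3/5-/- (log2 fold change 2.51, SE 0.14). Cd3d, a chain of the T cell receptor complex, had 16.9 and 17.4 CPM against 75.6 and 87.5 CPM (2.24, SE 0.13). Mgl2, a C-type lectin of macrophages, had 6.69 and 6.86 CPM against 43.5 and 38.1 CPM (2.59, SE 0.18). The X-linked genes Xlr3c (2.81, SE 0.19) and Magea4 (2.57, SE 0.19) rose by similar amounts. The rest were Psd4 (2.97), 4930503E14Rik (2.82), Gm514 (2.28) and Ric3 (2.23). Ric3, a chaperone of acetylcholine receptors, overlaps a gene on the other strand, and no source used here says whether the counting used strand. 4930503E14Rik lies on chromosome 14, which is treated separately below.

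**Figure D1:**
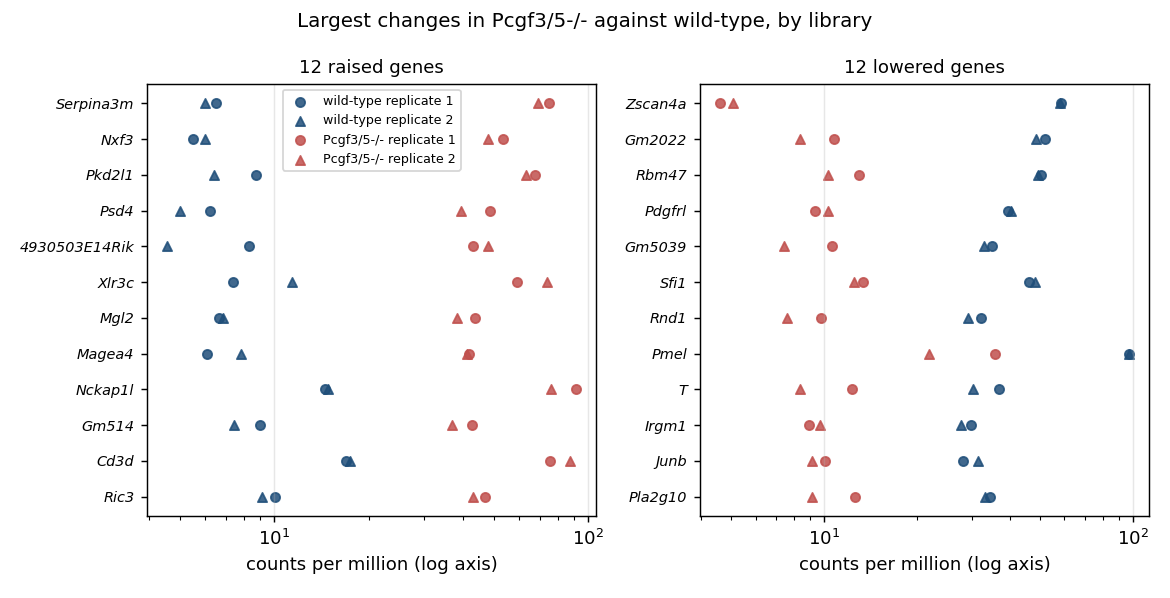
Levels of the 12 raised and 12 lowered genes with the largest changes, in CPM on a log axis; blue marks are the wild-type libraries and red marks the Pcgf3/5-/- libraries, with circles for replicate 1 and triangles for replicate 2. In every gene shown both red marks lie on one side of both blue marks, which the selection of these genes required. For Serpina3m they lie at 74.9 and 69.0 against 6.54 and 6.00 CPM.

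Among the 12 well-expressed genes with the largest decreases, Zscan4a came first. It had 58.4 and 58.0 CPM in wild-type and 4.6 and 5.05 CPM in Pcgf3/5-/-, a fall of 3.60 on the log2 scale (SE 0.17, edgeR adjusted p = 1.9e-07). Rbm47, an RNA-binding protein (chr5:66407788-66564356), had 50.4 and 49.4 CPM against 13.0 and 10.3 CPM (log2 fold change -2.08, SE 0.16). T, the Brachyury transcription factor of the primitive streak (chr17:8627288-8635361), had 36.9 and 30.4 CPM against 12.3 and 8.36 CPM (-1.68, SE 0.21). Junb, a subunit of the AP-1 transcription factor, had 28.1 and 31.4 CPM against 10.0 and 9.14 CPM (-1.62, SE 0.19). Pmel, a structural protein of melanosomes, had 97.0 and 96.8 CPM against 35.8 and 21.8 CPM (-1.72, SE 0.16), so the 2 knockout libraries differed from each other as well. The group also held Gm2022 (-2.37), Pdgfrl (-2.03), Gm5039 (-1.89), Sfi1 (-1.86), the small GTPase gene Rnd1 (-1.80), the interferon-inducible GTPase gene Irgm1 (-1.63) and the phospholipase gene Pla2g10 (-1.61). Zscan4a, Gm2022 and Gm5039 could not be placed in the annotation used. Rbm47, Pmel and Pla2g10 overlap a gene on the other strand and Sfi1 overlaps one on its own strand, so their values are less certain.

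Leaving the Y-linked genes aside, the gene list with the highest share of called members was that of the two-cell-like state, a rare condition of embryonic stem cells that carries transcripts of the two-cell embryo. Of its 17 members tested, 16 fell and none rose, also with the wild-type libraries counted as 1. Their median log2 fold change was -2.84, beside 0.02 over all genes tested. Summed over the members, the level was 302 and 293 CPM in wild-type and 41.1 and 30.7 CPM in Pcgf3/5-/-. Dux, the transcription factor known to activate this program, had 11.5 and 13.0 CPM in wild-type and 2.79 and 0.972 CPM in Pcgf3/5-/- (a log2 difference of -2.59, SE 0.35, edgeR adjusted p = 3.0e-04). Zscan4d had 44.9 and 45.3 CPM against 4.88 and 5.44 CPM (-3.13, SE 0.19). Tmem92 had 35.03 and 36.6 CPM against 2.09 and 1.56 CPM (-4.25, SE 0.25). Zscan4e was down to 3 counts in the knockout group against 65 in wild-type, a ratio of 5.20% after scaling (exact 95% interval 1.05 to 15.9%, counting error only). Zfp352 was the member that did not pass the test.

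In bulk RNA, fewer two-cell-like cells and less RNA in each such cell cannot be told apart. The Zscan4, Usp17l and Tdpoz genes are near-identical copies, among which reads may be divided differently by other counting rules. Members with few or no close copies fell as well: Tmem92, above, and Arg2, an arginase, at 4.80 and 5.43 CPM in wild-type and 0.418 and 0.194 CPM in Pcgf3/5-/-. Dppa3, a maternal-effect gene counted here among the naive pluripotency genes, also fell, from 25.0 and 26.1 CPM to 16.2 and 14.6 CPM (-0.73, SE 0.17).

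**Figure D2:**
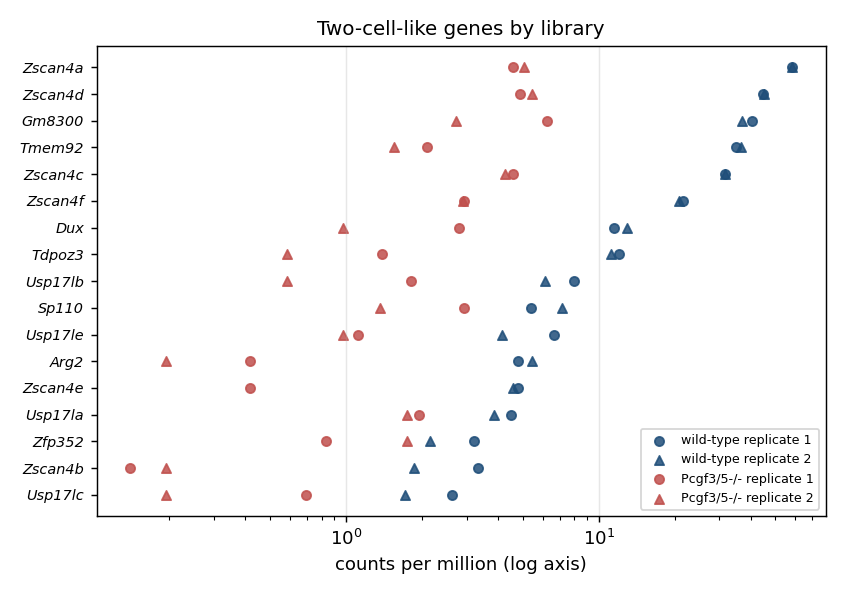
Levels of the 17 two-cell-like genes tested, in CPM on a log axis, in wild-type (blue) and Pcgf3/5-/- (red) libraries; replicate 1 is a circle and replicate 2 a triangle, and the 0 of Zscan4e in Pcgf3/5-/- replicate 2 cannot be drawn. The red marks lie to the left of the blue marks in each row, for Zscan4d at 4.88 and 5.44 against 44.9 and 45.3 CPM.

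Gene families of the germline and placenta were raised more often than lowered. Counts of list members, here and below, are to be read against the shares over all genes tested. These were 14.3% raised and 13.2% lowered in the first fit, and 12.9% and 9.07% in the second. In the Rhox cluster of X-linked homeobox genes, 5 of the 6 members tested were raised and none was lowered (6 and 0 with the wild-type libraries as 1), with a median log2 fold change of 1.46. Rhox6 had 5.09 and 5.43 CPM in wild-type and 29.3 and 23.7 CPM in Pcgf3/5-/- (2.34, SE 0.22, edgeR adjusted p = 2.6e-05). Rhox13 had 17.7 and 16.0 CPM against 49.4 and 50.0 CPM (1.56, SE 0.14). In the Mage family, cancer-testis genes that code for partners of ubiquitin ligases, 7 of 12 rose and 1 fell, in both fits, with a median of 1.13. Magea5 had no count in wild-type and 58 and 32 counts in the knockout libraries. Against a floor of 3 counts over the wild-type group it was at least 33.1-fold higher. Magee2 went the other way, from 11.5 and 10.3 CPM to 1.81 and 0.389 CPM (-3.15, SE 0.40).

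Members of the Prame family, also expressed in germ cells and early embryos, were raised in 4 of 6 cases and lowered in 1 (5 and 1 with the wild-type libraries as 1). Pramel6 had 19.9 and 23.4 CPM in wild-type and 79.7 and 76.2 CPM in Pcgf3/5-/- (1.85, SE 0.12), and its neighbour in name Pramel7 had 17.0 and 14.7 CPM against 60.1 and 53.1 CPM (1.84, SE 0.15). Pramef25 was down to 3 counts against 118 in wild-type, or 2.87% of that level (exact 95% interval 0.583 to 8.58%). Among 19 single germline genes, 7 rose and 3 fell in both fits, with a median of 0.57. Sohlh2, a transcription factor of early germ cells, had 40.1 and 32.9 CPM against 114 and 108 CPM (1.61, SE 0.11). Smc1b, a cohesin subunit of meiosis, had 3.92 and 4.29 CPM against 20.1 and 15.6 CPM (2.13, SE 0.25). Mael, a protein of the piRNA pathway, fell from 20.5 and 24.3 CPM to 5.72 and 5.25 CPM (-2.02, SE 0.23). Members of these families share sequence, so single values within a family are uncertain.

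Of 14 trophoblast genes tested, 9 rose and 2 fell, in both fits (median 0.62). Peg10, a retrotransposon-derived imprinted gene needed in the placenta, had 38.1 and 39.995 CPM in wild-type and 101 and 81.3 CPM in Pcgf3/5-/- (1.23, SE 0.12). Cdx2, a transcription factor of trophoblast fate, had 72.4 and 79.0 CPM against 117 and 103 CPM (0.54, SE 0.09). Ascl2, a transcription factor of the placenta, had 26.02 and 27.7 CPM against 47.8 and 39.1 CPM (0.70, SE 0.14). Tfap2a (-1.18, SE 0.14) and Gata2 (-1.21, SE 0.35) fell. Markers of differentiated trophoblast were not detected or hardly so: Tpbpa and Prl3d1 had no count in any of the 4 libraries, and Elf5 reached 0.279 CPM at most. Rhox6 and Rhox9 are counted both here and in the Rhox cluster, and Krt7, Krt8, Krt18 and Krt19 both here and among the keratins below.

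The Serpin family of protease inhibitors rose in 11 of 19 members tested (57.9%) and fell in 2 (10.5%), with a median of 0.60. With the wild-type libraries as 1 the counts were 11 and 1. Beside Serpina3m, its close relative Serpina3h had no count in wild-type and 61 and 38 counts in Pcgf3/5-/-, at least 36.8-fold higher than the floor. Serpinf1, on chromosome 11, had 5.23 and 3.57 CPM against 44.6 and 36.5 CPM (3.21, SE 0.22). The Serpina3 genes lie next to each other on chromosome 12 and are near copies. Among the clustered protocadherins, cell adhesion genes of which the α and γ members share their 3′ exons, so that their counts are uncertain, 7 of 14 rose and none fell (8 and 0), with a median of 0.91. Pcdhga8 had 3.49 and 3.43 CPM against 10.04 and 9.53 CPM (1.499, SE 0.26).

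Target genes of the integrated stress response, the ATF4-driven program that follows amino acid shortage or misfolded protein, were raised in 14 of 20 cases (70.0%). None was lowered. With the wild-type libraries as 1 the counts were 8 and 0. Chac1, a glutathione-degrading enzyme, had 34.5 and 35.3 CPM in wild-type and 121 and 124.03 CPM in Pcgf3/5-/- (1.81, SE 0.09, edgeR adjusted p = 3.1e-07). Vldlr, a lipoprotein receptor, had 5.23 and 6.00 CPM against 21.3 and 22.2 CPM (1.95, SE 0.22). Herpud1, a protein of endoplasmic reticulum quality control, had 62.5 and 69.3 CPM against 131 and 132 CPM (1.00, SE 0.09). The serine and one-carbon enzymes Psat1, Phgdh, Shmt2 and Mthfd2 rose by 0.32 to 0.48 only, and were among the members lost in the second fit. For these the 2 knockout libraries differed, Psat1 having 334 CPM in one and 426 CPM in the other. Atf4 itself had 204 and 207 CPM against 229 and 287 CPM (0.33, SE 0.11). It narrowly missed the threshold in the first fit (edgeR adjusted p = 0.051) and was not called in the second (0.53).

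**Figure D3:**
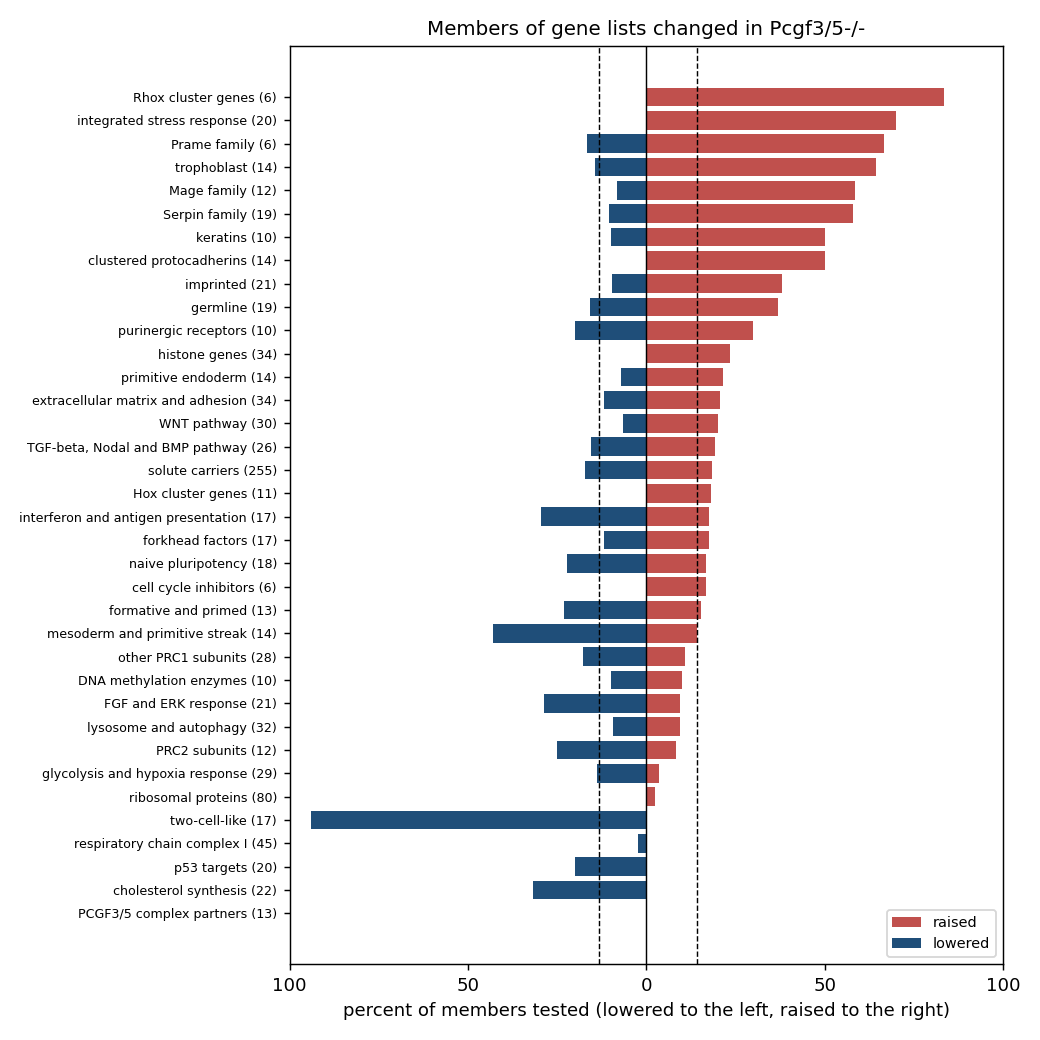
Share of the members tested that were raised (red, to the right) or lowered (blue, to the left) in Pcgf3/5-/- for each gene list with at least 5 members tested, the number tested standing after its name; the Y-linked list is left out. The dashed lines mark the shares over all genes tested, 14.3% raised and 13.2% lowered; two-cell-like genes extend farthest to the left and the Rhox cluster farthest to the right.

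Of 39 genes of mesoderm and the primitive streak, 9 had no count in the 4 libraries and 14 had enough counts to be tested. Of these 6 fell (42.9%) and 2 rose (14.3%), with a median of -0.51. With the wild-type libraries as 1 the counts were 5 and 1. Besides T, the falling members were Eomes, a T-box factor (11.6 and 12.4 CPM against 6.69 and 5.64 CPM), Tbx20, Etv2, Twist1 and Bmp4. Bmp4, a signalling ligand, had 169 and 164 CPM against 133 and 115 CPM (-0.42, SE 0.09) and was lost in the second fit. Snai1, the repressor of E-cadherin, rose from 19.9 and 20.0 CPM to 34.0 and 31.5 CPM (0.72, SE 0.15). The other rising member was Kdr, a VEGF receptor, at 1.31 and 1.43 CPM against 3.21 and 2.53 CPM.

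Of the 18 naive genes 3 were raised (16.7%) and 4 lowered (22.2%), and 1 and 1 with the wild-type libraries as 1. Pou5f1 (272 and 276 CPM against 265 and 344 CPM), Nanog (129 and 127 CPM against 142 and 156 CPM) and Esrrb (286 and 289 CPM against 309 and 302 CPM) did not pass the test. Among 13 genes of the formative and primed states, 2 rose (15.4%) and 3 fell (23.1%) in both fits. Lefty1, a Nodal antagonist, rose from 29.7 and 29.7 CPM to 79.5 and 75.4 CPM (1.38, SE 0.11), and Dnmt3a, a de novo DNA methyltransferase, rose from 35.9 and 37.1 CPM to 95.4 and 83.8 CPM (1.30, SE 0.11). Dnmt3b, the other de novo enzyme, fell from 152 and 158 CPM to 101 and 81.8 CPM (-0.75, SE 0.10). Lin28b, an inhibitor of let-7 processing, fell from 10.8 and 10.4 CPM to 4.04 and 2.14 CPM (-1.71, SE 0.30). The homeobox gene Otx2 fell from 4.36 and 5.29 CPM to 0.976 CPM and 0 (-3.05, SE 0.56).

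Of 27 neural genes 4 had enough counts to be tested, and 3 of them rose (2 in the second fit). Nes, an intermediate filament of neural precursors, had 4.65 and 2.86 CPM in wild-type and 11.4 and 7.58 CPM in Pcgf3/5-/- (1.37, SE 0.32). Zic2 had 9.74 and 11.7 CPM against 15.9 and 23.1 CPM (0.84, SE 0.23), and it lies on chromosome 14. Sox1, Pax6 and Neurog2 were at or below 1.02 CPM in all 4 libraries. Among 14 primitive endoderm genes tested of 25, 3 rose (21.4%) and 1 fell (7.14%), or 3 and 2 in the second fit. Stra6, a retinol transporter, had no count in wild-type and 59 and 32 counts in Pcgf3/5-/-, at least 33.4-fold higher. Lamb1, a laminin chain, fell from 16.4 and 14.6 CPM to 4.18 and 4.08 CPM (-1.90, SE 0.25). The defining factors Gata4, Gata6 and Sox17 had no count in any of the 4 libraries.

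Signalling lists held genes called in both directions, at shares to be read against the 14.3% raised and 13.2% lowered over all genes. In the WNT list 6 of 30 rose (20.0%) and 2 fell (6.67%), or 7 and 2 in the second fit, with a median of -0.03. Dkk3 had 17.3 and 19.3 CPM against 35.7 and 33.8 CPM (0.93, SE 0.15), the receptor gene Fzd9 had 0.291 and 0.429 CPM against 5.02 and 3.30 CPM (3.50, SE 0.48), and the feedback inhibitor Nkd2 had 7.56 and 8.00 CPM against 20.2 and 14.4 CPM (1.17, SE 0.24). Rnf43, a ligase that removes WNT receptors, was down to 1 count against 41 in wild-type, or 2.75% of that level (exact 95% interval 0.0680 to 16.2%). In the TGF-beta, Nodal and BMP list 5 of 26 rose (19.2%) and 4 fell (15.4%), or 5 and 2. Its receptor genes differed: Tgfbr3 rose (22.4 and 18.998 CPM against 40.4 and 35.97 CPM, 0.89, SE 0.15), whereas Tgfbr2 was down to 1 count against 49. The BMP targets Id1 (-0.46, SE 0.09) and Id3 (-0.33, SE 0.08) fell, Id3 in the first fit only. In the list of FGF and ERK response genes 2 of 21 rose (9.52%) and 6 fell (28.6%), or 2 and 4 in the second fit, Dusp6 going from 85.9 and 87.7 CPM to 55.1 and 52.9 CPM (-0.68, SE 0.09) and Spred1 from 45.2 and 41.7 CPM to 24.8 and 25.5 CPM (-0.79, SE 0.13). All 4 libraries were grown with a MEK1/2 inhibitor.

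Most genes of the Polycomb machinery were not called. Of 28 other PRC1 subunits 3 rose (10.7%) and 5 fell (17.9%), shares near the 14.3% and 13.2% over all genes (2 and 3 in the second fit). Scmh1, a sex-comb-on-midleg relative, had 11.9 and 12.4 CPM in wild-type and 32.6 and 25.9 CPM in Pcgf3/5-/- (1.27, SE 0.19, edgeR adjusted p = 5.1e-04). Bmi1, the gene of PCGF4, rose from 16.4 and 14.4 CPM to 22.6 and 24.9 CPM (0.62, SE 0.18). Pcgf6 fell from 36.9 and 34.9 CPM to 24.3 and 23.7 CPM (-0.58, SE 0.14), and Pcgf2 fell by 0.49 (SE 0.13). Kdm2b, the CpG island-binding subunit of PCGF1 complexes, fell from 209 and 209 CPM to 152 and 134 CPM (-0.54, SE 0.09), though not in the second fit. Of 12 PRC2 subunits 1 rose (8.33%) and 3 fell (25.0%), in both fits. Suz12 had 117 and 120 CPM against 85.04 and 83.8 CPM (-0.49, SE 0.08) and Aebp2 had 107 and 104 CPM against 67.2 and 68.0 CPM (-0.64, SE 0.09). Phf19, an accessory subunit, rose from 0.436 and 0.857 CPM to 3.49 and 2.92 CPM (2.29, SE 0.43).

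Imprinted genes, which are expressed from 1 parental allele, rose in 8 of 21 cases (38.1%) and fell in 2 (9.52%), with a median of 0.10. In the second fit the counts were 10 and 1. Plagl1, a zinc finger gene, had 98.9 and 102 CPM in wild-type and 268 and 271 CPM in Pcgf3/5-/- (1.42, SE 0.09). Grb10, a growth inhibitor, had 46.1 and 39.0 CPM against 137 and 129 CPM (1.65, SE 0.10). Peg3 had 52.6 and 49.6 CPM against 115 and 109 CPM (1.14, SE 0.09), and Sgce, the neighbour of Peg10, had 32.3 and 30.4 CPM against 74.7 and 77.0 CPM (1.27, SE 0.11). Meg3 and Mirg, transcribed from the maternal allele of the Dlk1 domain, fell by 0.48 (SE 0.10) and 1.23 (SE 0.30), Meg3 in the first fit only.

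Genes of cholesterol synthesis were lowered in 7 of 22 cases (31.8%), beside 13.2% of all genes tested, and none was raised. In the second fit 3 were lowered, where 9.07% of all genes tested were, and 1 was raised. The median was -0.17. Insig1, the retention factor of the SREBP pathway, had 30.4 and 34.9 CPM in wild-type and 17.7 and 16.7 CPM in Pcgf3/5-/- (-0.92, SE 0.16). Of 20 targets of p53, none rose and 4 fell (20.0%), or 1 and 3 in the second fit. Pmaip1, the apoptosis factor NOXA, had 75.3 and 79.8 CPM against 28.0 and 27.8 CPM (-1.47, SE 0.11), while Cdkn1a was not called. Of 34 histone genes 8 rose (23.5%) and none fell (7 and 0). The rising members included 4 of linker histone H1, Hist1h1b among them (45.1 and 45.4 CPM against 60.8 and 70.8 CPM, 0.53, SE 0.11). Most histone transcripts lack a polyA tail, and these libraries were made from polyA RNA.

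Housekeeping lists served as a measure of how far abundant genes moved. Of 80 ribosomal protein genes 2 rose and none fell, in both fits, and the rising ones in the first fit were the copies Rpl10l and Rpl39l. Of 45 complex I genes none rose and 1 fell in the first fit only. The 2 knockout libraries differed in these groups: the ribosomal protein genes summed to 11360 and 11602 CPM in wild-type, but to 10908 CPM in Pcgf3/5-/- replicate 1 and 14458 CPM in replicate 2. The part of this difference in the results was not tested beyond leaving each library out.

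The changes were not spread evenly over the chromosomes. Of the 448 chromosome 14 genes tested, 35.5% were raised and 6.70% lowered, with a median log2 fold change of 0.26. The 12256 genes tested on the other autosomes had 13.2% raised and 13.5% lowered, with a median of 0.02. Chromosome 14 genes held 3.21% and 3.20% of the autosomal counts in wild-type and 3.73% and 3.80% in Pcgf3/5-/-. In the 10 libraries of the other knockout lines that share lay between 2.90% and 3.23%. In windows of 10 Mb the median was 0.96 in the first (15 genes tested), 0.73 in the second (19 genes) and 0.34 in the third (51 genes). It was -0.04 between 50 and 60 Mb (98 genes) and 0.35 between 70 and 80 Mb (64 genes). The number of copies of the chromosome was not measured, so its part in the result was not tested. Among genes named here, 4930503E14Rik, Zic2 and Fzd3 lie on chromosome 14 and rose, and Otx2, Bmp4 and Irf9 lie there and fell.

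The Y chromosome differed as well. Its genes had 2403 and 2354 counts in wild-type and 20 and 17 in Pcgf3/5-/-. All 5 Y-linked genes tested, Eif2s3y, Ddx3y, Uty, Uba1y and Zfy1, were lowered. Eif2s3y, a translation initiation factor gene, had 125 and 123.98 CPM in wild-type and 0.139 and 0.194 CPM in Pcgf3/5-/-. Relative to the library totals, the counts summed over all Y genes were 352 and 338 CPM in wild-type and 2.82 and 3.21 CPM in Pcgf3/5-/-. The 8 libraries of Pcgf1-/-, Pcgf2/4-/-, Pcgf6-/- and Pcgf1/2/4-/- had between 1.11 and 16.6 CPM, and those of Pcgf3/5/6-/- had 97.1 and 99.6 CPM. On the X chromosome 21.7% of 494 genes were raised and 11.1% lowered. Without the genes of chromosomes 14 and Y, 1781 genes were raised and 1756 lowered. Among the mesoderm, neural, trophoblast and two-cell-like lists, only the mesoderm list (by Bmp4) and the neural list (by Zic2) then had a changed count.

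**Figure D4:**
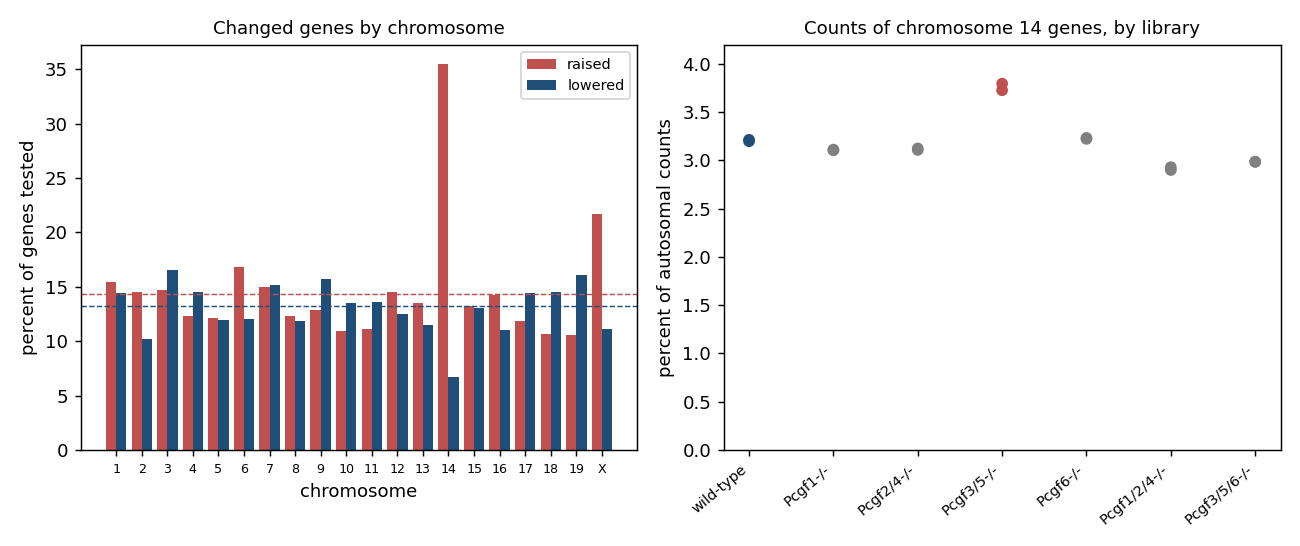
Left, percent of the genes tested on each chromosome that were raised (red) or lowered (blue) in Pcgf3/5-/-, with dashed lines at the shares over all genes; right, percent of autosomal counts that fell in chromosome 14 genes, 1 point per library, with wild-type in blue, Pcgf3/5-/- in red and the other lines in grey. Chromosome 14 stands out with 35.5% raised, and the Pcgf3/5-/- libraries lie at 3.73% and 3.80% where all others lie at or below 3.23%.

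The design next asks whether the changed genes lie at sites bound by PCGF3, USF1 or RING1B in wild-type cells. The deposited lists hold 223 PCGF3, 9659 USF1 and 5454 RING1B peaks, each called from 1 ChIP-seq sample. Of the PCGF3 peaks, 205 (91.9%) overlapped a USF1 peak and 49 (22.0%) overlapped a RING1B peak by at least 1 base. A list of 21 peaks was called with the same PCGF3 antibody in Pcgf3/5-/- cells, and 20 wild-type peaks overlapped it. A gene was counted as bound where a peak lay within 2.5 kb of one of its annotated starts. The sequences under the peaks were read from the mm9 genome in windows of 300 bases around each summit. CACGTG, which reads the same on both strands, was present in 81.6% of PCGF3 windows and 75.8% of USF1 windows. It was present in 8.69% of RING1B windows and, in RefSeq promoters of the same length, in 7.24% of all 27025 and in 10.3% of the 10086 of genes tested. Promoters of raised genes held it in 9.45% of cases and those of lowered genes in 10.3%.

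The following 30 bases, read 5′ to 3′ on the plus strand of mm9, come from PCGF3 peaks at genes described below, and capitals mark CACGTG. They are shown because they contrast peaks with the E-box at genes that rose or fell with peaks that lack it in their whole window.
Hps1 start, chr19:42854452-42854481: ttccgggtaggaCACGTGactcagccacat
Gpc2 and Stag3 starts, chr5:138721555-138721584: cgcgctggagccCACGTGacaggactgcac
Hormad1 start, chr3:95363530-95363559: caaagggtgcgcCACGTGccagtgacagtt
Socs2 start, chr10:94879553-94879582: aggaatccgcctCACGTGaccgcagccccc
H1f0 and Gcat, chr15:78861294-78861323: ccctgcccacgtCACGTGacggggagcact
Frmd4b start, chr6:97347240-97347269: cacatggggcttgggcattttgttactttt
Zcwpw1 start, chr5:138229082-138229111: gcgggaaaagttgctcgaggtggaagggat

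Of 196 such genes 189 were tested, 28 (14.8%) of them raised and 26 (13.8%) lowered, beside 14.3% and 13.2% of all genes tested. The median log2 fold change was -0.01. With the wild-type libraries as 1 the counts were 17 and 16. By the first fit, PCGF3-bound genes made up 1.49% of the raised, 1.49% of the lowered and 1.43% of the tested genes that could be placed. These genes were well expressed, with a median wild-type level of 77.1 CPM beside 41.8 CPM for all placed genes. Within ranges of mean level, 4 of 34 (11.8%) were raised and 8 (23.5%) lowered from 3 to 5 log2 CPM, beside 17.7% and 13.9% of genes without a PCGF3 peak. From 5 to 7 log2 CPM, 17 of 83 (20.5%) were raised and 12 (14.5%) lowered, beside 11.9% and 15.8%. Over 7 log2 CPM, 3 of 56 were raised and 1 lowered, and between 1 and 3 they were 3 and 4 of 14. The count without the 20 peaks also called in Pcgf3/5-/- was 27 raised and 25 lowered. Of the PCGF3 windows near raised genes 26 of 27 held CACGTG, near genes not called 110 of 114, and near lowered genes 19 of 32.

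Among raised genes with a PCGF3 peak, Hps1, a subunit of a lysosome-related organelle complex, had 43.8 and 49.9 CPM in wild-type and 90.8 and 76.4 CPM in Pcgf3/5-/- (0.84, SE 0.11, edgeR adjusted p = 3.0e-04). The summit lay 14 bases from its start. Stag3 and Gpc2 share 1 peak between their starts, and its summit lay 123 bases from that of Stag3. Stag3, a cohesin subunit of meiosis, had 89.0 and 84.6 CPM against 143 and 132 CPM (0.67, SE 0.09), and Gpc2, a glypican, had 15.1 and 13.7 CPM against 28.4 and 19.6 CPM (0.76, SE 0.21). Hormad1, a protein of meiotic chromosome axes, had 71.8 and 74.3 CPM against 104 and 126 CPM (0.64, SE 0.10). H1f0, which the annotation used lists as a pseudogene although it is known as a linker histone gene, had 14.7 and 15.7 CPM against 43.1 and 37.7 CPM (1.41, SE 0.16). The summit of its peak lay 2080 bases from its start and 72 bases from that of Gcat, which was not called (0.06, edgeR adjusted p = 0.680).

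Among lowered genes with a PCGF3 peak, Socs2, a feedback inhibitor of cytokine signalling, had 113 and 118 CPM in wild-type and 67.5 and 62.6 CPM in Pcgf3/5-/- (-0.82, SE 0.09, edgeR adjusted p = 6.2e-05). Frmd4b, a FERM domain protein, had 72.0 and 73.7 CPM against 44.8 and 36.9 CPM (-0.82, SE 0.11). Zcwpw1, a reader of histone methylation in meiosis, had 39.2 and 37.3 CPM against 26.8 and 19.6 CPM (-0.70, SE 0.16), and its peak did not overlap a USF1 peak. Mid1, a ubiquitin ligase gene on the X chromosome, had 143 and 145 CPM against 72.4 and 60.3 CPM (-1.11, SE 0.10). The long non-coding RNA G530011O06Rik, on the other strand within Mid1, had 33.7 and 32.6 CPM against 12.8 and 10.1 CPM (-1.51, SE 0.18). These last 2 lie under a run of 7 PCGF3 peaks without CACGTG, 5 of which were also called in Pcgf3/5-/- cells. Peaks of that run thus make up 7 of the 32 windows near lowered genes.

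Of 3719 genes at USF1 peaks 3290 were tested, and 407 (12.4%) were raised and 424 (12.9%) lowered, with a median of 0.01. The counts were 352 and 265 with the wild-type libraries as 1, the lowered count moving by more than 1.5 times. From 5 to 7 log2 CPM, the range with most USF1-bound genes, 13.0% were raised and 17.4% lowered, beside 11.7% and 15.2% without a USF1 peak. Genes at RING1B peaks were raised more often: of 3415 such genes 1834 were tested, and 455 (24.8%) were raised and 294 (16.0%) lowered, with a median of 0.10. With the wild-type libraries as 1, 470 rose and 281 fell. RING1B-bound genes were expressed at a low level, the median wild-type level of those tested being 7.56 CPM beside 41.8 CPM for all placed genes.

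Shares were therefore compared within ranges of mean level. Below 1 log2 CPM, 35.1% of 242 RING1B-bound genes and 32.9% of 419 others were raised. Between 1 and 3 log2 CPM, 21.2% of 679 and 19.7% of 1620 were raised. From 3 to 5 the shares were 26.7% of 521 and 15.7% of 2407, from 5 to 7 they were 23.5% of 324 and 11.2% of 4298, and over 7 they were 16.2% of 68 and 4.30% of 2625. The raised share of RING1B-bound genes thus lay above that of the others in each range, and by the most over 3 log2 CPM. The lowered share was 31.8% of RING1B-bound genes and 20.8% of the others below 1 log2 CPM, 13.4% and 12.04% between 1 and 3, 13.1% and 14.2% from 3 to 5, 16.4% and 15.8% from 5 to 7, and 7.35% and 5.60% over 7. Of the 40 genes tested with both a PCGF3 and a RING1B peak, 13 (32.5%) were raised and 11 (27.5%) lowered. The second fit called 9 and 9 of them. Of the 149 with a PCGF3 but no RING1B peak, 15 (10.1%) were raised and 15 (10.1%) lowered, or 8 and 7 in the second fit. With a RING1B but no PCGF3 peak, 24.6% of 1794 were raised and 15.8% lowered. Over all placed genes tested the shares were 14.3% and 13.2%.

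**Figure D5:**
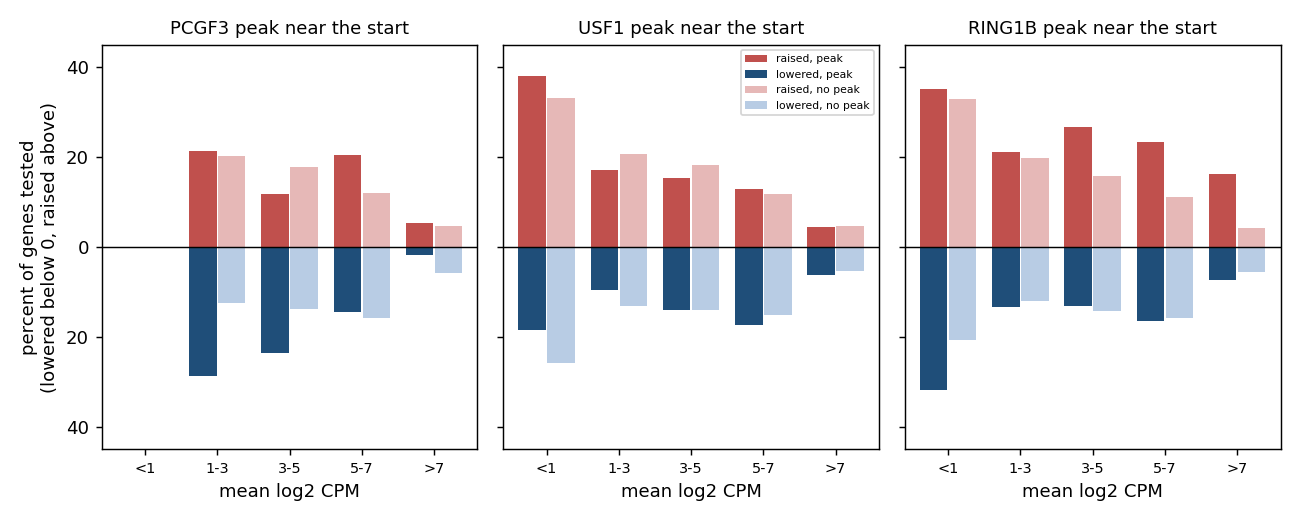
Percent of the genes tested that were raised (red, above 0) or lowered (blue, below 0) with a wild-type PCGF3, USF1 or RING1B peak within 2.5 kb of a start (dark bars) or without (pale bars), by mean log2 CPM over the 4 libraries; PCGF3 is not drawn below 1, where 2 bound genes were tested. The dark red bars rise above the pale ones at RING1B peaks over 3 log2 CPM, 26.7% against 15.7% in the range 3 to 5.

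None of the 21 genes with the largest changes that could be placed had a PCGF3 peak near its start. Only 1.43% of all placed genes tested had one, so 21 genes are too few to show a difference. USF1 peaks lay near Cd3d, Sfi1, Junb and Pla2g10, and RING1B peaks near Psd4, Rbm47, T and Junb. Over all placed genes tested, 24.9% had a USF1 peak and 13.9% a RING1B peak. Of the 12 raised genes 5 (Nxf3, Xlr3c, Magea4, Nckap1l and Cd3d) had an H3K4me3 peak, a mark of active promoters, near a start in Pcgf3/5-/- and none in wild-type. Over all genes, 111 tested genes (0.84% of those placed) had such a peak only in Pcgf3/5-/-, and 59 of them (53.2%) were raised and 9 (8.11%) lowered. With a peak only in wild-type, 27 of 126 (21.4%) were raised and 33 (26.2%) lowered. Over all placed genes tested the shares were 14.3% and 13.2%. Both sets were expressed at a low level, with median wild-type levels of 5.19 and 4.39 CPM beside 41.8 CPM. They were not compared within ranges of level. Each H3K4me3 list comes from 1 sample per line.

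A last comparison set the 2 Pcgf3/5-/- libraries against the mean of the Pcgf1-/-, Pcgf2/4-/- and Pcgf6-/- lines (2 libraries each), which were also made by Cas9 editing of E14 cells. In one edgeR model over all 14 libraries, 2509 of 15464 genes tested (16.2%) were higher in Pcgf3/5-/- and 1805 (11.7%) were lower, together 27.9%. It shares the Pcgf3/5-/- libraries with the comparison above, so the 2 are not independent. For Serpina3m the difference was 3.86 on the log2 scale, and with all 14 libraries scaled together it had 69.4 and 68.0 CPM in Pcgf3/5-/- and between 0.834 and 11.05 CPM in the 6 libraries of the other lines. Magea4 (2.94) likewise had 38.6 and 40.6 CPM against 2.08 to 8.46 CPM. Nxf3 (4.93) had 49.5 and 47.1 CPM in Pcgf3/5-/-, 21.8 and 23.6 CPM in Pcgf6-/- and below 1 CPM in the 4 libraries of Pcgf1-/- and Pcgf2/4-/-. In each of these genes both Pcgf3/5-/- libraries stood above all 6 others. Of the 12 raised genes with the largest changes, Psd4, 4930503E14Rik, Ric3 and Gm514 did not show this. Psd4 had 45.2 and 38.7 CPM in Pcgf3/5-/- and 46.3 and 46.2 CPM in Pcgf6-/-. Ric3 had 43.4 and 42.3 CPM against 44.1 and 45.1 CPM, and 4930503E14Rik had 39.8 and 47.3 CPM against 42.8 and 49.2 CPM. Gm514 had 39.4 and 36.4 CPM, against 69.3 and 80.5 CPM in Pcgf1-/-. The rest of the 12 did show it, but all 12 were picked for their level in these same 2 Pcgf3/5-/- libraries. Of the 1940 genes raised against wild-type, 1143 (58.9%) were called higher in this contrast and 37 lower. Of the 1791 lowered genes, 740 (41.3%) were called lower and 81 higher.

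For other genes the 3 lines differed among themselves, and Pcgf6-/- stood apart from the other 2. Tmem92, of the two-cell-like list, was lower than that mean by -3.01 (edgeR adjusted p = 2.2e-06). It had 1.94 and 1.53 CPM in Pcgf3/5-/-, 2.38 and 0.915 CPM in Pcgf1-/-, 6.25 and 11.1 CPM in Pcgf2/4-/-, and 181 and 186 CPM in Pcgf6-/-. Zscan4a had 4.26 and 4.98 CPM in Pcgf3/5-/-, 3.68 and 0.686 CPM in Pcgf1-/-, 20.8 and 25.2 CPM in Pcgf2/4-/-, and 147 and 174 CPM in Pcgf6-/-. Both genes were thus about as low or lower in Pcgf1-/-. T was higher than the mean of the 3 lines by 1.18 (edgeR adjusted p = 0.0020), at 11.4 and 8.24 CPM in Pcgf3/5-/-. It had 10.8 and 14.4 CPM in Pcgf2/4-/-, 9.50 and 5.72 CPM in Pcgf1-/- and 0.612 and 1.21 CPM in Pcgf6-/-. Slc25a31, an ADP/ATP carrier of germ cells, was lower than the mean by -1.15, at 8.01 and 8.43 CPM in Pcgf3/5-/-. It had 177 and 194 CPM in Pcgf6-/- and at most 8.08 CPM in the other 2 lines. Of the genes with PCGF3 peaks, Stag3 (0.64) and Socs2 (-0.41) passed this test, and H1f0 (-0.09), Gpc2 (0.08) and Mid1 (-0.15) did not. Eif2s3y did not pass it either (-0.32, edgeR adjusted p = 0.93). The Pcgf3/5/6-/- line, whose label also names Pcgf3 and Pcgf5, was in the model but not in this contrast. Serpina3m had 8.62 and 5.96 CPM there, beside 6.43 and 5.92 CPM in wild-type on the same scale. Nxf3 (2.46 and 5.30 CPM) and Magea4 (2.46 and 2.65 CPM) were below wild-type there. Zscan4a (84.1 and 82.8 CPM) and Tmem92 (152 and 171 CPM) were above wild-type. Psd4 (44.7 and 52.7 CPM) was above wild-type and T (6.47 and 5.63 CPM) below it, as in Pcgf3/5-/-.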

How the data were processed

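RNA-seq gene counts were deposited by the authors as whole numbers per gene and library; the submitters' processing notes name bcl2fastq, TopHat2 2.1.1, Bowtie 1.2.2, Picard 1.62, HTSeq 0.7.2, DESeq2 and MACS2 2.1.1 and the mm9 build, with no roles. The authors' deposited table of comparisons gives log2 fold changes and p-values, and was used for counts of calls only. Peak lists were deposited with −log10 q values, fold enrichment and a score per peak, in the narrowPeak layout of MACS2, used here for position, summit and q; each comes from 1 sample.

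Counts were fitted with edgeR 4.0.16 (R 4.3.3, limma 3.58.1) by the quasi-likelihood test on the 4 libraries, with filterByExpr (minimum count 10), TMM factors and Benjamini-Hochberg adjustment at 0.05. Log2 CPM used a prior count of 2. The common dispersion was 0.00516. On simulated data for this comparison (13448 genes) 82.2% of 107 genes changed by 1 log2 unit and 100% of 93 changed by 2 were recovered, with 9 false calls. The simulation gave both groups the same dispersion, larger than the common dispersion, and changed only genes above a minimum mean count. The real groups differed in spread, so these figures do not measure the error of the calls above. Depth of 5295194 to 7099900 counts sets a floor of 3 counts at 0.423 to 0.567 CPM per library; intervals cover counting error only. Genes were placed by symbol in GENCODE M1 (mm9): 20864 by symbol, 993 by synonym, 1383 not at all and 137 ambiguously. The members and the 39 gene lists were chosen with earlier results of these data known. Genes named are the targeted genes and partners, the 12 raised and 12 lowered genes with the largest changes (adjusted p under 0.05, mean log2 CPM of at least 4, both knockout libraries beyond both wild-type ones), 5 each way of these with a PCGF3 peak, and up to 4 called members per list and direction; others, named for their level or position, were chosen after their values were seen. The replicate numbers were not shown to pair libraries: the correlation of deviations was 0.05. DESeq2 1.42.0, other filters, scalings, windows and left-out libraries were tried as alternatives.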

Additional observations from a re-analysis of the deposited data

How the results depend on the processing

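Directions of the genes named by size did not change under any alternative run, and of the 24 with the largest changes all kept an adjusted p under 0.05 wherever they were tested. Of the genes named for a PCGF3 peak, Gpc2 lost its call with DESeq2 (adjusted p = 0.055) and in the edgeR fit over all 14 libraries (0.056), beside 1.1e-09 to 0.033 in its other alternatives. Counts depended more on the setting. Requiring 10 CPM in 2 libraries gave 1204 raised and 1151 lowered genes, and at RING1B peaks 232 and 123 (16 lowered at PCGF3 peaks). DESeq2 gave 1114 and 880, with 10 and 11 at PCGF3, 235 and 186 at USF1 and 273 and 165 at RING1B peaks. A log2 fold change beyond 1 was met by 976 and 576 genes, with 4 and 9 at PCGF3 peaks, 159 and 66 at USF1 peaks and 182 lowered at RING1B peaks. Counting the wild-type libraries as 1 gave 17 and 16 at PCGF3 peaks and 265 lowered at USF1 peaks. The fit over all 14 libraries gave 16 raised at PCGF3 peaks. PCGF3 peaks with −log10 q of at least 10 gave 16 and 15, and a 10 kb window gave 657 lowered genes at USF1 peaks. The cause of these differences in count was not tested.

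Leaving out 1 library gave 1531 to 3541 raised and 1017 to 3525 lowered genes: the counts were highest without Pcgf3/5-/- replicate 1 (3524 and 3525) or 2 (3541 and 3045), and lowest without wild-type replicate 2 (1531 raised) or 1 (1017 lowered). The ranges were 16 to 59 and 13 to 57 at PCGF3 peaks, 312 to 899 and 213 to 911 at USF1 peaks and 386 to 660 and 217 to 472 at RING1B peaks. Against the 3 other lines 2311 to 2869 genes changed without 1 Pcgf3/5-/- library, beside 4314. A lone library is then assumed to vary like the other group. Without wild-type replicate 1 the raised share of changed genes was 62.2%, and beyond log2 1 it was 62.9%, beside 52.0%. The fit with the replicate number as a block gave 2227 raised and 2164 lowered genes; the numbers are not known to pair libraries.

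Partners that edgeR did not call changed sign when 1 library was left out. Their log2 fold changes ranged from -0.64 to 0.0070 for Ring1, from -0.012 to 0.16 for Rnf2, from -0.086 to 0.0029 for Rybp, from -0.040 to 0.14 for Yaf2, from -0.28 to 0.49 for Fbrsl1, from -0.22 to 0.015 for Csnk2a1, from -0.049 to 0.29 for Csnk2b and from -0.25 to 0.083 for Usf2 (0.037 without Pcgf3/5-/- replicate 2). The sign changes lay without Pcgf3/5-/- replicate 2 for Ring1, Rnf2 and Csnk2b, without replicate 1 for Yaf2, Fbrsl1 and Csnk2a1, and without a wild-type library for Rybp and Usf2. Pcgf3 passed the threshold without Pcgf3/5-/- replicate 2 (-0.45, edgeR adjusted p = 0.036), beside 0.077 to 0.585 in its other alternatives.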

Other observations

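Receptors and transporters outside the lists above held some of the largest changes at low level. Shares in this section are to be read against the 14.3% raised and 13.2% lowered over all genes tested, and many lie near them. Of 10 purinergic receptor genes tested, 3 rose (30.0%) and 2 fell (20.0%) in both fits. P2rx3, an ATP-gated channel of sensory neurons, had 0.727 and 0.571 CPM in wild-type, and in Pcgf3/5-/- it reached 46.3 and 38.1 CPM (5.99 on the log2 scale, SE 0.30, edgeR adjusted p = 2.5e-07), and it stood 2.52 above the mean of the Pcgf1-/-, Pcgf2/4-/- and Pcgf6-/- lines. P2rx7 fell from 18.3 and 19.1 CPM to 11.99 and 10.7 CPM. Of 255 solute carriers 47 rose and 44 fell (42 and 30 in the second fit), 18.4% and 17.3% of those tested. Slc6a13, a GABA transporter, rose by 3.17 and Slc30a10, a manganese exporter, fell by 2.78 on the log2 scale. Of 34 genes of matrix and adhesion 7 rose (20.6%) and 4 fell (11.8%), or 6 and 4 in the second fit. Cdh3, P-cadherin, fell from 12.4 and 11.999 CPM to 1.39 and 1.75 CPM (-2.96, SE 0.31), Epcam fell from 87.4 and 86.7 CPM to 50.2 and 47.8 CPM (-0.83, SE 0.09), and Timp3, a metalloprotease inhibitor, rose from 0.872 and 0.857 CPM to 5.16 and 5.64 CPM (2.61, SE 0.36).

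Keratins rose in 5 of 10 cases (50.0%) and fell in 1 (10.0%), in both fits, Krt12 being at least 9.46-fold above the floor. Krt7, Krt8, Krt18 and Krt19 are counted both here and among the trophoblast genes. Forkhead factors gave 3 (17.6%) and 2 (11.8%) of 17 in both fits, Foxo3 rising by 1.65 and Foxo4 falling by 1.09. Lysosome and autophagy genes gave 3 (9.38%) and 3 (9.38%) of 32 (2 and 1). Gpnmb had 15.4 and 13.3 CPM against 34.3 and 28.2 CPM. Glycolysis and hypoxia genes gave 1 (3.45%) and 4 (13.8%) of 29 (1 and 3): Vegfa rose by 1.14 and Pdk1 fell by 1.48. Interferon and antigen presentation genes gave 3 (17.6%) and 5 (29.4%) of 17 (3 and 3 in the second fit), with H2-D1 raised by 0.86 and Irf9, on chromosome 14, lowered by 0.99. DNA methylation enzymes gave 1 (10.0%) and 1 (10.0%) of 10 (1 and 0), with Tet3 raised by 0.69 and Tet1 lowered by 0.54. Cell cycle inhibitors gave 1 (16.7%) and 0 of 6, with Cdkn1b raised by 0.59. Hox genes gave 2 (18.2%) and 0 of 11 (1 and 1), with Hoxb13 raised by 1.37. Fibroblast markers gave 1 (25.0%) and 1 (25.0%) of 4 (2 and 1).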
